A study of Mus musculus with 46 samples.

Results

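The tumour suppressor p53 (gene Trp53) and 9 of its direct transcriptional targets (Mdm2, Ccng1, Perp, Sesn1, Eda2r, Zmat3, Phlda3, Trp53inp1 and Aen) were examined in mouse thyroid tumour cell cultures in which p53 itself is mutated. The members were chosen by name, and 9 of the 10 were found, in both tables, among 14360 and 14056 listed genes. Eda2r, a receptor of the TNF receptor family, was listed in neither and is left out. The donor mice bore conditional Rb and p53 mutations, with or without one of Max, and a tamoxifen-inducible Cre recombined these in neuroendocrine cells. Values were analysed for 4 RPM lines (Rb, p53 and Max mutant) and 4 RP lines (Rb and p53 mutant), and for a separate experiment on a single RPM line (RPM replicate 2 by the library names) with 3 libraries transduced to express Max again (Max addback) and 3 given the empty vector. The 32 libraries made from tumours were not analysed here. Every group therefore carried the Rb and p53 mutations, and no group with intact p53 was analysed, so the values below are levels in p53 mutant cells and not the part of a level that depends on p53. All cells were grown in DMEM with 10% serum; no agent that damages DNA is named in the labels.

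In cells with functional p53, the protein is held low because MDM2, the product of one of its own target genes, binds it and marks it for degradation. DNA damage and other stresses break this loop, and p53 then binds paired half-sites near genes that arrest the cell cycle, kill the cell, or repair DNA and limit oxidative stress. These target genes are also transcribed in the absence of p53, from promoters that other factors use. MYC proteins bind the E-box as a pair with MAX, and so do the repressive MXD, MNT and MGA proteins. Genes of the p53 response and the MYC network meet in ARF, a product of Cdkn2a, which inhibits MDM2.

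The depth over listed genes was 7829982 to 8408913 reads in RPM lines, 8242657 to 8498396 in RP lines, 7426964 to 7912573 with Max addback and 6738614 to 7238672 with empty vector. Levels are TMM-normalised CPM, that is, read counts scaled to the size of each library, and 3 reads correspond to 0.353 to 0.458 CPM. Differences are given as log2 of CPM + 1, so that those of low genes are understated, and a gene was called at a Benjamini-Hochberg adjusted p under 0.05 in limma fitted to all listed genes. The libraries differed in ways their groups do not name. The animal number in the name of RPM replicate 1 recurs on tumour libraries whose label gives an Rb/p53 genotype. RP replicate 4 held both Xist (344 CPM) and the Y-linked Ddx3y (53.3 CPM). The addback libraries had 0 CPM of Ddx3y, against 157 to 177 CPM with empty vector, although both are given as the same line, so what Max did and what else set those cultures apart cannot be told apart. Addback replicate 3 stood apart from replicates 1 and 2: the chi-square divided by its degrees of freedom was 15.5 and 13.2 for its pairs, against 1.84 between replicates 1 and 2 and 1.76 to 1.90 among empty vector libraries. The 6 C cell and neuroendocrine markers Calca, Calcb, Ret, Chga, Chgb and Syp were all listed, with sums of 2070 to 14784 CPM in RPM lines, 2610.02 to 3882 CPM in RP lines, 4031 to 4762 CPM with addback and 3280 to 3486 CPM with empty vector. Thyroglobulin (Tg) and Tshr, which define follicular cells, were listed in neither table. The tests below rest on the spread among libraries: the 8 lines are named separately, but all 6 transduced libraries are given as a single line, and the labels do not say whether they were separate cultures.

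The engineered genes were examined first. Trp53 (ENSMUSG00000059552.13; chromosome 11, 69580359 to 69591873, plus strand, GRCm38 as mm10) was transcribed in every library. It stood at 15.8, 9.72, 17.5 and 11.6 CPM in RPM replicates 1 to 4, against 9.02, 10.1, 10.2 and 16.6 CPM in RP replicates 1 to 4. The groups overlapped: RPM replicates 1 and 3 and RP replicate 4 were high and the other 5 lines lay at 9.02 to 11.6 CPM. The means were 13.7 ± 3.61 CPM in RPM lines and 11.5 ± 3.45 CPM in RP lines (SD, n = 4 each). The log2 difference of 0.23 ± 0.28 (SE) did not pass the test (limma adjusted p = 0.702; exact two-sided permutation p = 0.314). In these bulk cultures, fewer cells with a transcript and less transcript per cell cannot be told apart. With Max addback Trp53 had 11.1, 9.34 and 11.95 CPM, against 12.7, 12.5 and 12.5 CPM with empty vector. All 3 addback values lay below all 3 empty vector values, but the log2 difference of -0.21 ± 0.13 (SE) did not pass the test (limma adjusted p = 0.186; exact two-sided permutation p = 0.1, the smallest that 3 against 3 libraries allow). These levels rest on 75 to 148 reads a library.

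The Trp53 values give no measure of functional p53. The labels do not say which part of the gene the conditional mutation removes, and a gene-level count does not separate reads of removed exons from reads of the rest. The same holds for Max, which had 80.9, 103, 68.9 and 100 CPM in RPM lines, against 65.2, 44.7, 50.8 and 57.5 CPM in RP lines. Max was thus not lower but higher in every line labelled Max mutant (log2 difference 0.68; limma adjusted p = 0.161; exact two-sided permutation p = 0.0286, the smallest possible here; called by DESeq2 at an adjusted p of 0.0205), so the gene-level values do not check that label. In the addback experiment Max had 251, 250 and 220 CPM with addback, against 86.3, 83.1 and 96.0 CPM with empty vector. That log2 difference was 1.43 (limma adjusted p = 5.75e-07). Rb1 averaged 169 ± 38.6 CPM in RPM lines and 240 ± 41.6 CPM in RP lines (SD, n = 4 each; limma adjusted p = 0.254). It averaged 211 ± 20.8 CPM with addback and 212 ± 6.63 CPM with empty vector (SD, n = 3 each; limma adjusted p = 0.916).

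The promoter windows of the members were read for both kinds of element that this biology turns on, the E-box CACGTG and the p53 half-site, each on both strands. Windows of 250 bases before to 50 bases after an annotated start come from RefSeq (GRCm38.p6) and exist for 7 of the 10 members; Perp, Zmat3 and Trp53inp1 have none in that table. Shown here are Trp53 and the 3 members with a window that were called lower with Max addback (results below), with E-boxes and half-sites in capitals. Positions count the first transcribed base as 1.
Trp53, chr11:69580109-69580408, plus strand: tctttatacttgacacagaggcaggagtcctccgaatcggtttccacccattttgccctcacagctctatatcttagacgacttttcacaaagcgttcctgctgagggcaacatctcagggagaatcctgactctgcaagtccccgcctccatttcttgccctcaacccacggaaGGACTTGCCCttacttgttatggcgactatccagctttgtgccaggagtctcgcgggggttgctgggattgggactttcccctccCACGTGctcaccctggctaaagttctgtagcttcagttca
Aen, chr7:78895808-78896107, plus strand: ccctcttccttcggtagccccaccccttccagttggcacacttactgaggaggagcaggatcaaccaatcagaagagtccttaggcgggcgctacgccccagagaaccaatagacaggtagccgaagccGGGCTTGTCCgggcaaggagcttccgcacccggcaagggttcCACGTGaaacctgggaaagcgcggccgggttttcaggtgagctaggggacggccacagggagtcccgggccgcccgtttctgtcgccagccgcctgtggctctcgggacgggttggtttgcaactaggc
Ccng1, chr11:40755237-40755536, minus strand: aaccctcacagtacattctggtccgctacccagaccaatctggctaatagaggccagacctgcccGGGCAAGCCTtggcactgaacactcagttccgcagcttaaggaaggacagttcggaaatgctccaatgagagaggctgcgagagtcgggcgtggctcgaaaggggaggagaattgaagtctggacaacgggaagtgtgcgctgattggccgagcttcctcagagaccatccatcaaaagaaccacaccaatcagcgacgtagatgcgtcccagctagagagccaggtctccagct
Sesn1, chr10:41887189-41887488, plus strand: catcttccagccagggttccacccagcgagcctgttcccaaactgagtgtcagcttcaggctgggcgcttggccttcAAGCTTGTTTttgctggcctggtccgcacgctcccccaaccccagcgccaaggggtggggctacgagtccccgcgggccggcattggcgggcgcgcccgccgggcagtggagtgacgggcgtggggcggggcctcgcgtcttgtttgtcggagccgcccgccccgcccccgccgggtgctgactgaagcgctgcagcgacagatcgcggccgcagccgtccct
Trp53 carried an E-box at 11 to 16 and a half-site at -75 to -66. For Aen and Sesn1 the window of the second of 2 annotated starts is shown. In Aen the E-box lay at -79 to -74 and the half-site at -121 to -112. Ccng1 and Sesn1 held a half-site, at -185 to -176 and -173 to -164, and no E-box. Mdm2 held a half-site at -186 to -177, and Phlda3, the member called higher with addback, held neither element. The 7 genes have 9 windows in all. The E-box was in 3 of them (Trp53, Aen and the unlisted Eda2r) and the half-site in 6 (both windows of Aen), against 7.15% and 8.36% of all 32851 windows. The 2 windows of Aen overlap and hold the same half-site, so half-sites were found in 5 of the 7 genes. The window of the first Sesn1 start, not shown, held neither element. A match describes letters of the window and does not show a bound site. Wrap53 runs on the opposite strand, away from Trp53, and its own start lies 103 bases before the Trp53 start. A processed pseudogene, Trp53-ps on chromosome 17, is not listed, and whether it took or gave reads of Trp53 was not tested.

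Read per kilobase (RPKM), which allows levels of different genes to be compared, Trp53 was among the least abundant of the 9 genes. The labels do not say which part of Trp53 the mutation removes, so its RPKM may understate it beside the other genes. The order in RPM lines was Ccng1 (24.5 RPKM), Mdm2 (23.2), Sesn1 (12.6), Trp53inp1 (11.3), Perp (9.43), Aen (7.79), Zmat3 (7.07), Trp53 (3.38) and Phlda3 (1.76 RPKM). Of the neighbours in that order, Mdm2 and Sesn1, and Zmat3 and Trp53, did not overlap between libraries, and the others did. In RP lines the order was Mdm2 (21.7 RPKM), Perp (21.3), Ccng1 (18.9), Sesn1 (10.4), Trp53inp1 (9.43), Zmat3 (6.22), Aen (4.41), Trp53 (2.84) and Phlda3 (1.83 RPKM), and every pair of neighbours overlapped. With addback it was Ccng1 (28.5 RPKM), Mdm2 (24.2), Trp53inp1 (17.6), Sesn1 (12.5), Zmat3 (5.29), Aen (3.79), Perp (3.24), Trp53 (2.67) and Phlda3 (0.867 RPKM), with no overlap between neighbours. With empty vector it was Ccng1 (42.1 RPKM), Mdm2 (22.0), Trp53inp1 (21.5), Sesn1 (19.0), Aen (6.41), Zmat3 (6.11), Trp53 (3.11), Perp (2.69) and Phlda3 (0.126 RPKM); there Mdm2 and Trp53inp1, Aen and Zmat3, and Trp53 and Perp overlapped. The median of all listed genes was 7.24 RPKM in RPM lines, 7.18 in RP lines, 7.26 with addback and 7.08 with empty vector. By group mean, Mdm2, Ccng1, Sesn1 and Trp53inp1 thus stood above the median gene in all 4 groups although p53 was mutated in each, and Trp53 and Phlda3 stood below it. Trp53inp1 lay below that median in RPM replicate 1 (5.18 RPKM) and RP replicate 1 (5.98 RPKM).

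**Figure D1:**
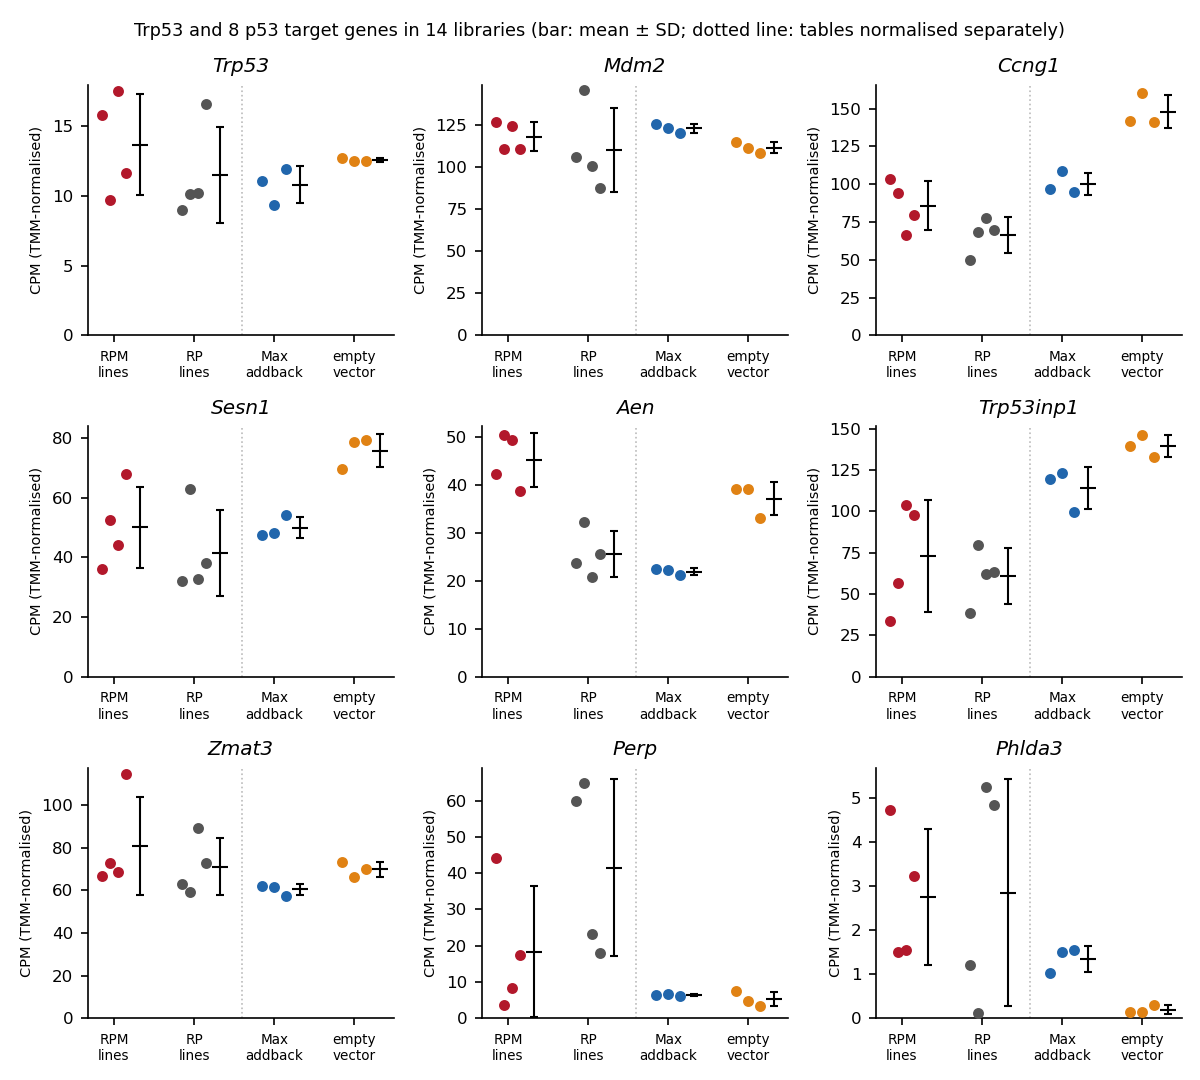
Level of Trp53 and 8 target genes in each of the 14 libraries, in TMM-normalised CPM on linear axes from 0; points are libraries, bars are the mean ± SD of a group, and the dotted line separates tables that were normalised separately. Aen lies at 38.8 to 50.4 CPM in RPM lines, above the 20.7 to 32.2 CPM of RP lines, and Ccng1, Sesn1, Aen and Trp53inp1 are lower with Max addback than with empty vector.

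Between RPM and RP lines, none of the 9 members was called, against 0.334% of all 14360 genes (48 genes; 0.209% higher and 0.125% lower), and 1 member had an unadjusted p under 0.05, against 15.9% of all genes. The median log2 difference of the members was 0.19, beside -0.01 over all genes, and 8 of the 9 differences lay above 0, against 49.5% of all genes. Aen was the 1 member whose groups did not overlap, against 9.37% of all genes; it was higher in RPM lines, as were 4.97% of genes, and no member was lower without overlap, against 4.39%. Between Max addback and empty vector, 5 of the 9 members were called, against 53.2% of all 14056 genes: Aen, Ccng1, Sesn1 and Trp53inp1 were lower (25.5% of genes were) and Phlda3 was higher (27.7%). The called share is near the background, as most genes of that table differed. At an unadjusted p under 0.05 there were 6 members, against 58.9% of genes. The groups did not overlap for 8 of the 9 members, against 61.9% of all genes: 2 were higher (31.7% of genes) and 6 lower (30.2%). The median log2 difference of the members was -0.21, beside -0.00 over all genes, and 3 of the 9 lay above 0, against 49.9% of genes. On the recovered reads, edgeR called none of the 9 members in the lines, against 0.0209% of all genes (3 genes). DESeq2 called 1, Aen, against 4.58% of all genes. No member was called in the lines without RPM replicate 1, against 1.82% of genes, or without RP replicate 4, against 0.118%. Without addback replicate 3, 7 members were called, with Mdm2 and Zmat3 added (limma adjusted p = 0.018 and 0.0333), and the share of all genes called was then 64.3%.

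**Figure D2:**
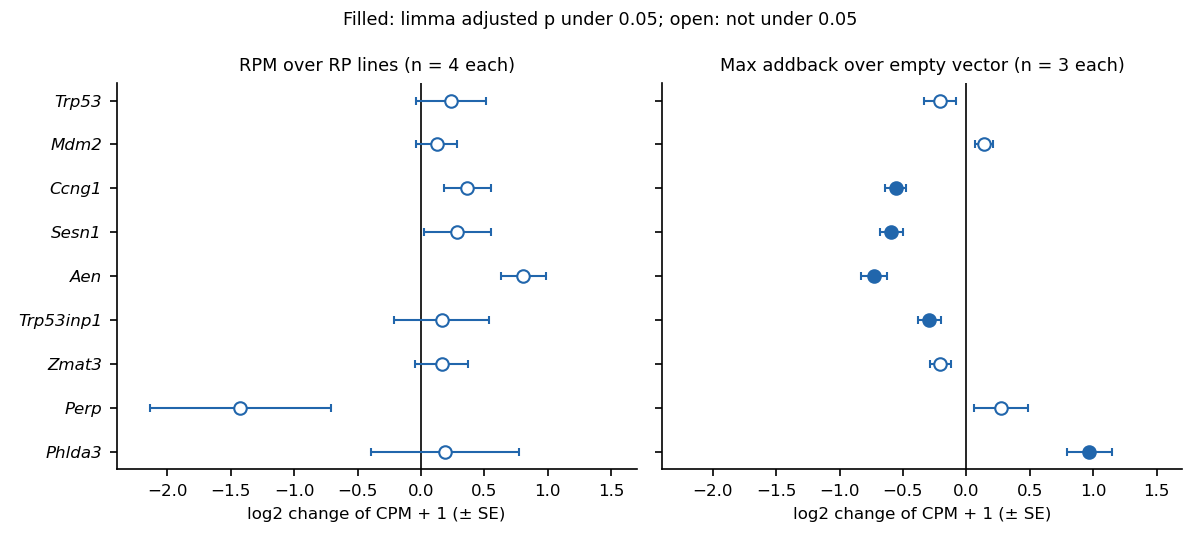
Difference of each member on the log2(CPM + 1) scale with its standard error, RPM over RP lines (left) and Max addback over empty vector (right); filled points have a limma adjusted p under 0.05. Aen stands at 0.81 in the lines without passing the test, and with addback Aen, Sesn1, Ccng1 and Trp53inp1 lie at -0.73 to -0.29 and Phlda3 at 0.97.

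Mdm2 encodes the ubiquitin ligase that degrades p53 and is the classical feedback target. It lies on chromosome 10 at 117688875 to 117710758 (minus strand; ENSMUSG00000020184.15). RPM lines held 127, 111, 125 and 111 CPM, against 106, 146, 101 and 87.9 CPM in RP lines. The 4 RPM values fell within the range of the RP lines, where replicate 2 was the highest of all 8 and replicate 4 the lowest (log2 difference 0.12 ± 0.16 SE; limma adjusted p = 0.731). Addback libraries had 126, 123 and 120 CPM, against 115, 112 and 109 CPM with empty vector. The groups did not overlap, yet the log2 difference of 0.14 ± 0.07 (SE) did not pass the test (limma adjusted p = 0.118). The genes whose levels over the 8 lines were most like those of Mdm2, among genes with a mean of at least 5 CPM, were Rrp1 (Pearson r = 0.98), Dapk3 (0.93) and Aifm2 (0.93). Most like Trp53 were Pdia3 (r = 0.91), Rtf2 (0.88) and Chmp4b (0.88). Between Trp53 and Mdm2 themselves r was -0.06, and between Trp53 and the other 7 target genes it lay between -0.19 (Perp) and 0.43 (Phlda3). These values describe the same 8 libraries and were picked as the highest of all genes.

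Ccng1 and Sesn1 belong to the arrest and stress-protection arms of the response. Ccng1 encodes cyclin G1, which recruits a phosphatase to MDM2 (chromosome 11, 40748552 to 40755311, minus strand; ENSMUSG00000020326.7; window shown above). It had 104, 93.9, 66.6 and 79.4 CPM in RPM lines, against 49.8, 68.4, 77.8 and 69.5 CPM in RP lines. RPM replicates 1, 2 and 4 exceeded every RP line and RPM replicate 3 did not, and the log2 difference of 0.37 ± 0.19 (SE) missed the threshold (limma adjusted p = 0.37). With addback Ccng1 had 96.9, 108 and 95.0 CPM, against 142, 160 and 141 CPM with empty vector. The means were 100.1 ± 7.31 CPM with addback and 148 ± 10.9 CPM with empty vector (SD, n = 3 each), and Ccng1 fell by 0.56 on the log2 scale (SE 0.09; limma adjusted p = 0.000389). Sesn1 encodes sestrin 1, a stress-induced inhibitor of mTORC1 signalling (chromosome 10, 41809935 to 41908424, plus strand; ENSMUSG00000038332.13). Its values were 36.2, 52.5, 44.0 and 67.9 CPM in RPM lines, against 32.1, 62.8, 32.9 and 38.2 CPM in RP lines. One line of each group was high, RPM replicate 4 and RP replicate 2, and the difference did not pass the test (log2 0.28 ± 0.26 SE; limma adjusted p = 0.621). With addback Sesn1 had 47.7, 48.1 and 54.1 CPM, against 69.5, 78.6 and 79.4 CPM with empty vector. It fell by 0.59 on the log2 scale (SE 0.09; limma adjusted p = 0.000367), and the groups did not overlap. In RPM replicate 2, the same line by the library names, Sesn1 (52.5 CPM) lay within the addback range and below every empty vector library. Ccng1 in that replicate (93.9 CPM) lay just below the addback libraries and far below those with empty vector. The lines were normalised separately from the addback experiment.

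Aen, the gene of an exonuclease that takes part in p53-dependent apoptosis, moved furthest among the members that fell with addback (chromosome 7, 78895854 to 78911209, plus strand; ENSMUSG00000030609.18; window shown above). RPM lines had 42.4, 50.4, 49.4 and 38.8 CPM, against 23.7, 32.2, 20.7 and 25.7 CPM in RP lines. Every RPM line was above every RP line. The means were 45.2 ± 5.58 CPM in RPM lines and 25.6 ± 4.87 CPM in RP lines (SD, n = 4 each), a log2 difference of 0.81 ± 0.18 (SE). Adjusted over all genes this did not pass limma's threshold (adjusted p = 0.132) or that of edgeR's quasi-likelihood test (adjusted p = 0.158), whereas DESeq2 on the recovered reads called it (adjusted p = 0.0031). With addback Aen had 22.5, 22.2 and 21.2 CPM, against 39.2, 39.2 and 33.1 CPM with empty vector. The addback values lay within the range of the RP lines. Empty vector replicates 1 and 2 lay near the low end of the RPM lines. Empty vector replicate 3, at 33.1 CPM, lay below every RPM line and just above the highest RP line. RPM replicate 2, the same line by the library names, had 50.4 CPM, the highest of the lines. The tables were normalised separately. Aen fell by 0.73 on the log2 scale with addback (SE 0.10; limma adjusted p = 0.000205). In the authors' deposited table the log2 change of Aen with addback was -0.76 and was called, and in the lines it was 0.82 with an FDR of 0.419 and was not. With addback the authors also called Sesn1 lower and Phlda3 higher. They did not call Ccng1 (log2 change -0.56, FDR 5.13e-06) or Trp53inp1 (log2 change -0.29, FDR 0.026).

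Trp53inp1 encodes a stress protein that promotes p53 phosphorylation and autophagy (chromosome 4, 11156431 to 11174379, plus strand). It ranged widely, with 33.6, 56.6, 104 and 98.0 CPM in RPM lines, against 38.7, 79.5, 62.4 and 63.6 CPM in RP lines. The RPM lines held both the lowest and the highest value of the 8, and the log2 difference of 0.16 ± 0.37 (SE) did not pass the test (limma adjusted p = 0.859). With addback it had 120, 123 and 99.5 CPM, against 139, 146 and 133 CPM with empty vector. It fell by 0.29 on the log2 scale (SE 0.09; limma adjusted p = 0.0248), the smallest change among the called members, and lost the call on CPM without the TMM factor (adjusted p = 0.0691). It also lost the call without empty vector replicate 1 (adjusted p = 0.0774) or 2 (adjusted p = 0.101). RPM replicate 2, the same line by the library names, had 56.6 CPM of Trp53inp1, below every addback and every empty vector library, which were normalised separately. Zmat3, which encodes an RNA-binding zinc finger protein (chromosome 3, 32334792 to 32366014, minus strand), had 66.6, 72.9, 68.9 and 115 CPM in RPM lines, against 63.2, 59.3, 89.5 and 72.7 CPM in RP lines. RPM replicate 4 stood well above the other 3 RPM lines, and the log2 difference was 0.16 ± 0.21 (SE; limma adjusted p = 0.728). With addback Zmat3 had 62.3, 61.8 and 57.6 CPM, against 73.3, 66.3 and 70.1 CPM with empty vector. The groups did not overlap, but the log2 difference of -0.20 ± 0.08 (SE) missed the threshold by a small margin (limma adjusted p = 0.0525).

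Perp, a tetraspan membrane protein that p53 induces in apoptosis and that p63 uses in epithelial adhesion, varied most among the members with a mean of at least 5 CPM (chromosome 10, 18845020 to 18857073, plus strand). It had 44.3, 3.62, 8.28 and 17.5 CPM in RPM lines, against 59.9, 64.9, 23.3 and 18.02 CPM in RP lines. RPM replicate 1 lay among the RP lines and RPM replicate 2 was the lowest of all. The means were 18.4 ± 18.2 CPM in RPM lines and 41.5 ± 24.3 CPM in RP lines (SD, n = 4 each), and the log2 difference of -1.42 ± 0.72 (SE) did not pass the test (limma adjusted p = 0.365). Without RPM replicate 1 it was -1.996 (limma adjusted p = 0.133). With addback Perp had 6.36, 6.60 and 6.04 CPM, against 7.43, 4.83 and 3.51 CPM with empty vector, and the groups overlapped (log2 difference 0.28 ± 0.21 SE; limma adjusted p = 0.298). The summed level of 4 epithelial markers (Epcam, Cdh1, Krt8 and Krt18, all listed) was 3376, 108, 1035 and 650 CPM in RPM replicates 1 to 4, against 3078, 2298, 1708 and 1672 CPM in RP replicates 1 to 4. RPM replicate 2 was thus lowest and RPM replicate 1 highest for both these markers and Perp within the RPM lines. In the addback experiment the sum was 388 to 458 CPM with addback, against 54.1 to 60.7 CPM with empty vector. The part of these markers in the Perp values was not tested. The basal epithelial markers Krt5, Krt14, Dsg3 and Trp63 were listed in neither table.

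Phlda3, whose product competes with AKT for membrane lipids, was the least abundant member (chromosome 1, 135766119 to 135769136, plus strand). It had 4.72, 1.496, 1.54 and 3.22 CPM in RPM lines, against 1.20, 0.12, 5.24 and 4.83 CPM in RP lines. Levels in both groups spread over a similar range, and the sign of the difference depended on the scale: the mean was 2.74 ± 1.54 CPM in RPM lines and 2.85 ± 2.57 CPM in RP lines (SD, n = 4 each), while the log2 difference was 0.19 ± 0.58 (SE; limma adjusted p = 0.894). With addback Phlda3 had 1.02, 1.49 and 1.54 CPM, against 0.14, 0.14 and 0.31 CPM with empty vector. That is 8, 12 and 12 reads, against 1, 1 and 2 reads. All 3 addback libraries were higher, by 0.97 ± 0.18 (SE) on the log2(CPM + 1) scale (limma adjusted p = 0.00121). Summed over libraries and scaled to depth, the ratio was 6.96 with a 95% interval of 2.47 to 27.1, which covers counting error only. It was thus the 1 member called higher with addback, while the other 4 called members were lower, and its level was close to the counting floor.

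Whether the members differed between the Max contrasts was tested directly, as the log2 difference of RPM over RP lines minus that of empty vector over Max addback, across 13528 genes and all 14 libraries. None of the 9 members passed (limma adjusted p under 0.05), against 28.7% of all genes; 1, Mdm2, had an unadjusted p under 0.05, and voom with quality weights on the recovered reads called none either. Mdm2 came nearest, with a difference of 0.36 (adjusted p = 0.0733); without RP replicate 2 it was 0.46 and passed (adjusted p = 0.0101). The difference was 0.07 for Aen (adjusted p = 0.83), and 0.79 for Phlda3 (adjusted p = 0.249), which voom gave as 2.42 (adjusted p = 0.0687). A p that misses the threshold does not show that the contrasts act alike on a gene. The contrasts share no library, but the library names give the addback experiment the line of RPM replicate 2. Of the Y-linked Ddx3y, the addback libraries had 0 CPM, against 157 to 177 CPM with empty vector and 125 CPM in RPM replicate 2.

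The members also differed in how far lines of 1 genotype lay apart. The SD within groups on the log2(CPM + 1) scale was 1.19 for Perp, larger than that of 92.5% of the 11568 genes with a mean of at least 5 CPM. It was 0.61 for Trp53inp1 (79.9% of genes smaller), 0.41 for Sesn1 (66.2%), 0.36 for Trp53 (60.0%) and 0.32 for Zmat3 (51.6%). Ccng1 (0.27; 42.2%), Mdm2 (0.23; 29.8%) and Aen (0.22; 27.1%) varied less than the median gene. The median was 0.34 over the 8 members that reached 5 CPM, and 0.31 over all 11568 genes. From the lowest to the highest line, Mdm2 spanned 1.66-fold, Trp53 1.94-fold, Zmat3 1.94-fold, Ccng1 2.08-fold, Sesn1 2.11-fold, Aen 2.43-fold, Trp53inp1 3.09-fold and Perp 17.96-fold. No line was high for all targets: 5, 5, 4 and 6 of the 8 target genes were above their median over the 8 lines in RPM replicates 1 to 4, against 1, 4, 4 and 3 in RP replicates 1 to 4. Perp alone was above its median in RP replicate 1. RPM replicate 4 held the highest Sesn1 and Zmat3, and RP replicate 2 the highest Mdm2 and Perp but the lowest Zmat3 and Phlda3.

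**Figure D3:**
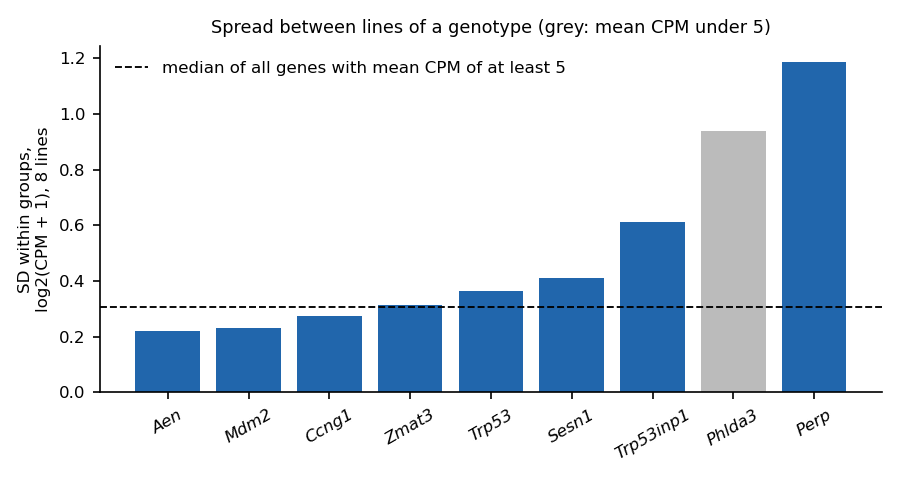
Spread of each member between lines of a genotype, as the SD within groups of log2(CPM + 1) over the 8 RPM and RP lines; the dashed line is the median of all genes with a mean of at least 5 CPM, and Phlda3 (grey) has a lower mean. Aen, Mdm2 and Ccng1 lie below 0.31 and Trp53inp1 and Perp reach 0.61 and 1.19.

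Other genes of the pathway were read from lists by role. Between RPM and RP lines no listed gene of the 5 lists was called, beside the 0.334% of all genes above. At an unadjusted p under 0.05 there were 1 of 11 arrest targets, 2 of 8 apoptosis targets, 0 of 5 repair targets, 1 of 8 targets in metabolism and secretion, and 7 of 18 regulators, against 15.9% of all genes. Cdkn1a, which encodes the cyclin-dependent kinase inhibitor p21, had 234, 106, 75.9 and 84.3 CPM in RPM lines, against 206, 96.7, 140 and 112 CPM in RP lines. Replicate 1 was the highest of each group, and the log2 difference was -0.24 (limma adjusted p = 0.78). Without RPM replicate 1 it was -0.59 (limma adjusted p = 0.246). Cdkn2a, the locus of ARF and p16, averaged 92.6 ± 40.1 CPM in RPM lines and 101 ± 25.8 CPM in RP lines (SD, n = 4 each; limma adjusted p = 0.788). Mdm4, a relative of MDM2 that masks p53's activation domain, averaged 166 ± 34.9 CPM in RPM lines and 139 ± 16.7 CPM in RP lines (SD, n = 4 each; limma adjusted p = 0.504). Of the p53 family, Trp63 was not listed. Trp73 had 0.77, 0, 0.59 and 0.99 CPM in RPM lines, against 5.29, 6.01, 6.10 and 2.71 CPM in RP lines. All 4 RPM lines lay below all 4 RP lines, on 19 reads in RPM lines and 167 reads in RP lines. The ratio was 0.117 with a 95% counting interval of 0.0688 to 0.189, and limma came close to a call (log2 difference -1.92; adjusted p = 0.0546). Without RPM replicate 1 it was called (log2 difference -1.99; limma adjusted p = 0.0413), as was 1 other regulator, Ppp1r13b, which encodes the p53-binding protein ASPP1, against 1.82% of all genes. Ppp1r13b, named after its values were seen, had 105, 36.2, 45.7 and 53.01 CPM in RPM replicates 1 to 4, against 111, 125, 97.9 and 90.8 CPM in RP lines. With all lines its log2 difference was -0.92 (limma adjusted p = 0.224).

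With Trp73, 6 of the 50 listed genes had groups that did not overlap between the lines, or 12% against 9.37% of all genes, which is near the background; the other 5 are named after their values were seen. Atm and Atr encode the kinases that signal DNA damage to p53. Atm had 161, 219, 151 and 241 CPM in RPM lines, against 115, 106, 113 and 121 CPM in RP lines (log2 difference 0.73; limma adjusted p = 0.133). Atr averaged 80.3 ± 16.7 CPM in RPM lines and 56.4 ± 6.89 CPM in RP lines (SD, n = 4 each; limma adjusted p = 0.237). Pidd1, a death-domain scaffold of caspase 2, averaged 55.0 ± 11.7 CPM in RPM lines and 91.1 ± 14.3 CPM in RP lines (SD, n = 4 each; limma adjusted p = 0.156). Rps27l, a ribosomal protein paralogue, averaged 66.6 ± 6.99 CPM in RPM lines and 47.2 ± 6.75 CPM in RP lines (SD, n = 4 each; limma adjusted p = 0.194), and Usp7, a deubiquitinase of MDM2, had a log2 difference of -0.25 (limma adjusted p = 0.308). None of these passed limma's threshold. edgeR on the recovered reads called none of them either, against 0.0209% of all genes. DESeq2, which called 4.58% of all genes, called Atm, Pidd1 and Trp73 (adjusted p = 0.00407, 0.02 and 0.0017).

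With Max addback the lists moved in both directions, beside 27.7% of all genes called higher and 25.5% called lower. The summed fibroblast markers Col1a1 and Dcn (Col1a2, Pdgfra and Lum were not listed) were at 5.34 to 7.10 CPM with addback, against 28.9 to 39.2 CPM with empty vector; their part in these differences, and that of the epithelial markers above, was not tested. Of 11 listed arrest targets, 3 were called higher and 3 lower, with a median log2 difference of 0.03. Cdkn1a had 94.3, 95.9 and 127 CPM with addback, against 194, 164 and 227 CPM with empty vector. It fell by 0.88 on the log2 scale without overlap (SE 0.14; limma adjusted p = 0.000523). The kinase gene Plk2 fell by 0.86 (limma adjusted p = 4.95e-05) and Zfp365 by 1.21 (limma adjusted p = 0.000477), Zfp365 at only 0.64 to 0.90 CPM with addback and 2.29 to 3.98 CPM with empty vector. The phosphatase gene Ptp4a3 rose, with 158, 142 and 176 CPM with addback, against 59.6, 60.7 and 60.8 CPM with empty vector (log2 difference 1.38; limma adjusted p = 8.62e-07). Rap2b also rose, on 28 reads in all with addback and 9 with empty vector, a ratio of 2.70 (95% counting interval 1.24 to 6.52; limma adjusted p = 0.0177), a call that DESeq2 did not make and that was lost without empty vector replicate 2. Of 8 listed apoptosis targets, 2 were called higher and 1 lower: Tnfrsf10b, a death receptor, rose by 1.42 (limma adjusted p = 0.00125) and Pidd1 by 0.31 (limma adjusted p = 0.0142), and Bbc3, which encodes PUMA, fell by 0.56 (limma adjusted p = 0.0127). Tnfrsf10b was low, at 3.43 to 5.11 CPM with addback and 0.284 to 1.68 CPM with empty vector. The call of Pidd1 was lost without addback replicate 1 or empty vector replicate 1 or 3, and that of Bbc3 without addback replicate 2. Pmaip1 and Fas were not listed.

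Of the 5 repair targets, Xpc, a sensor of damaged DNA, was called lower (log2 difference -0.30; limma adjusted p = 0.0358), and the call was lost in DESeq2, without the TMM factor and on leaving out addback replicate 1 or 2 or any empty vector library. Of 8 listed targets in metabolism and secretion, 4 were called lower and 1 higher, with a median log2 difference of -0.32. Ephx1 fell by 1.01 (limma adjusted p = 0.00079), Slc19a2, a thiamine transporter, by 0.59 (limma adjusted p = 0.000472) and Tigar, which lowers glycolytic flux, by 0.58 (limma adjusted p = 0.0005). Ephx1 was low, at 0.996 to 1.41 CPM with addback and 2.70 to 3.82 CPM with empty vector. Sesn2, the paralogue of Sesn1, fell by 0.43 (limma adjusted p = 0.00986), and Ak1, an adenylate kinase, rose by 0.82 (limma adjusted p = 4.88e-05). Of 17 listed regulators, 4 were called lower and 1 higher. Atm had 163, 171 and 78.5 CPM with addback, against 266, 257 and 262 CPM with empty vector (log2 difference -1.01; limma adjusted p = 0.0056). Atr fell by 0.92 (limma adjusted p = 0.000437). Addback replicate 3 was the lowest library for both genes, and without it Atm fell by 0.65 (limma adjusted p = 2.4e-09) and Atr by 0.73 (limma adjusted p = 3.49e-09). Cdkn2a fell by 0.34 (limma adjusted p = 0.0226), Chek1 fell by 0.28 (limma adjusted p = 0.0408) and Rchy1, another ubiquitin ligase of p53, rose by 0.47 (limma adjusted p = 0.00792). The calls of Cdkn2a and Chek1 were lost without the TMM factor and without addback replicate 1 or any 1 empty vector library, that of Cdkn2a also without addback replicate 2 and that of Chek1 also in DESeq2. Mdm4 did not pass the test (log2 difference 0.16; limma adjusted p = 0.292), but without addback replicate 3 it rose by 0.31 (limma adjusted p = 3.5e-05), and 12 of 17 regulators were then called, 6 in each direction, against 64.3% of all genes. Without addback replicate 1, or without any 1 of the empty vector libraries, 3 regulators were called, against 43.9 to 49.0% of all genes.

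**Figure D4:**
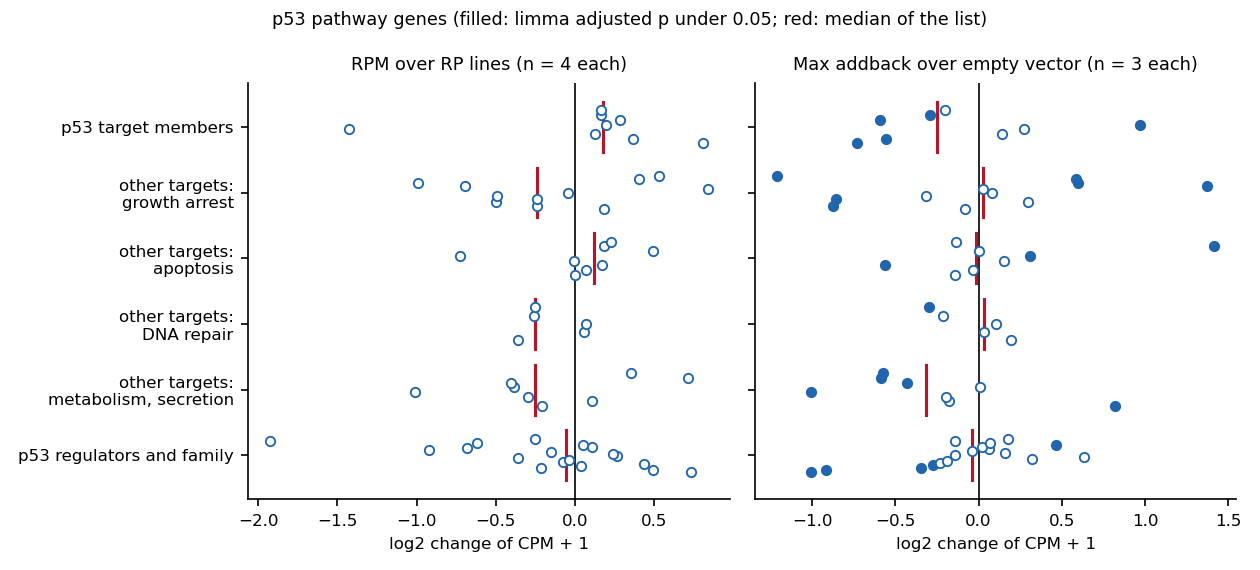
Difference on the log2(CPM + 1) scale of each listed p53 pathway gene by role, RPM over RP lines (left) and Max addback over empty vector (right); 1 point is 1 gene, filled where the limma adjusted p is under 0.05, and red lines are list medians. No gene is filled on the left, and on the right filled genes lie on both sides of 0, from -1.21 to 1.42.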

How the data were processed

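RNA-seq values of 14 cell libraries were analysed, grouped by sample titles and genotypes. Members and gene lists were chosen with earlier results of these data known: all 10 members, Max, Rb1, Cdkn1a, Trp63, Trp73, Cdkn2a and Mdm4 are named, with up to 5 called genes per list by size of change and the 3 genes most like Trp53 and Mdm2. Per the submitters' processing notes, the tools were bcl2fastq 1.8.4, TopHat2 2.1.0, HTSeq 0.6.1 and edgeR, with build mm10; the role of each tool, the annotation release and strand handling were not given in the sources used here. Each library's deposited columns, per the file headers, are a CPM signal normalised by TMM and RPKM values; the authors also deposited log2 changes and log2 levels, p-values with FDR, and a score of -1, 0 or 1 for their calls; the tables were normalised separately. CPM values were whole multiples of 1 read in 100% of cases (within 0.01 read), which gave reads for the count tests as alternatives and the read numbers printed. limma-trend 3.58.1 was fitted in R 4.3.3 to log2(CPM + 1) of all listed genes, each comparison on its own libraries without covariates, with no filter on low values, and for the difference of contrasts with library weights on all 14 libraries. edgeR 4.0.16 and DESeq2 1.42.0 on whole reads, pseudocounts of 0.5 and 0.1, a mean CPM of at least 5, CPM without the TMM factor, a replicate block and leaving out each library were the alternatives. The fits were tested on simulated data. Coordinates are from GENCODE vM21. The 32 tumour libraries were not analysed here. 1 further marker gene of the cell type list is not reported here.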

Additional observations from a re-analysis of the deposited data

Results flagged for a closer look

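In a group of 4 lines, a value was singled out where its gap to the nearest other line divided by the group's range exceeded Dixon's 95% critical value. Of 18 groups tested (9 genes in RPM and in RP lines) 2 held such a value, and chance gives about 1 in 20. Trp53 in RP replicate 4 was 16.6 CPM, with a gap of 0.839 of the range above the other 3 RP lines. Zmat3 in RPM replicate 4 was 115 CPM, with a gap of 0.869 of the range above the other 3 RPM lines.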

How the results depend on the processing

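The count of all genes called between the lines (48) depended on the tool: it was 3 in edgeR, 658 in DESeq2 (350 higher, 308 lower), 0 with the replicate block, and 0 to 261 on leaving out 1 line. It was 261 (77 higher, 184 lower) without RPM replicate 1, 11, 0 and 0 without RPM replicates 2, 3 and 4, and 7, 12, 0 and 17 without RP replicates 1 to 4; the cause was not tested. No member was called in the lines in any of these except 1, Aen, in DESeq2. With addback 7478 genes were called, and 6166 to 9035 on leaving out 1 library, with 4 to 7 members. For the difference between contrasts 3880 genes were called, 1195 with no library weights and 1804 to 4129 on leaving out 1 library, with 0 to 1 members (Mdm2, without RP replicate 2). The lowest of these counts were 1804 and 2235 without RPM replicates 4 and 3, and 2231 and 2471 without addback replicates 2 and 1. Signs turned among the named genes where the difference had not passed the test. In the lines, Phlda3 was -0.055 in edgeR and -0.057 in DESeq2, and -0.29 to 0.53 on leaving out 1 line (below 0 without RPM replicate 1 or RP replicate 2). That range was -0.048 to 0.49 for Trp53inp1 (below 0 without RPM replicate 3 or 4 or RP replicate 1), -0.017 to 0.28 for Zmat3 (below 0 without RPM replicate 4) and -0.40 to 0.11 for Cdkn2a (above 0 without RPM replicate 2). With addback, Rb1 was 0.068 without the TMM factor and -0.056 to 0.072 on leaving out 1 library. For the difference between contrasts, no library weights gave 0.024 for Trp53, -0.042 for Zmat3 and -0.13 for Trp53inp1. Leaving out 1 library gave -0.41 to 0.044 for Trp53, -0.25 to 0.23 for Zmat3, -0.17 to 0.41 for Trp53inp1 and -0.023 to 0.20 for Aen. Among members with addback, Mdm2 also passed without the TMM factor (adjusted p = 0.0229) and Perp without empty vector replicate 1 (0.51; limma adjusted p = 0.0422). The main fits did not use the replicate numbers as pairs. Same-numbered deviations correlated at 0.0078 to 0.42 in the lines and 0.044 to 0.10 in the addback experiment. RPM replicates 1 and 4 correlated best with the RP line of their own number, and RPM replicates 2 and 3 did not. Each addback library correlated best with the empty vector library of its own number, so pairing is not settled there. With the replicate block 5 members were called with addback and 0 in the lines. Depth limits Phlda3 most, at 1 to 43 reads a library, and Trp53 at 75 to 148.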
